A study of Mus musculus with 2 samples.

Results

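Cholesterol and fatty acid synthesis was followed through 30 mouse genes out of the 32285 in the count tables. They were listed by pathway knowledge and matched by gene symbol, and all 30 had reads in both libraries. Of these, 7 act in the mevalonate steps (Acat2, Hmgcs1, Mvk, Pmvk, Mvd, Idi1 and Fdps), 3 lead from farnesyl pyrophosphate over squalene to lanosterol (Fdft1, Sqle and Lss), and 9 lead from lanosterol to cholesterol (Cyp51, Tm7sf2, Lbr, Msmo1, Nsdhl, Hsd17b7, Ebp, Sc5d and Dhcr7). These 19 enzymes are called the sterol arm here, and the fatty acid arm is the 6 genes Acly, Acaca, Fasn, Elovl6, Scd1 and Scd2. The other 5 genes are the regulators Srebf1, Srebf2, Scap and Insig1 and the sterol carrier gene Stard4. Together the 30 genes took 0.199% of the counted transcripts of kept cells in the cKO library and 0.247% in the WT library.

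Intestinal tumours were raised in mice with AOM-DSS, that is, with the carcinogen azoxymethane and with dextran sulfate sodium, which injures the colon lining. The cKO mice carried floxed Mtch2 alleles and a Cre recombinase driven by the Villin promoter (Mtch2fl/fl VilCre), a promoter of gut epithelial cells. The WT mice carried the same floxed alleles with no Cre named in their genotype (Mtch2fl/fl). Mtch2 encodes a protein of the outer mitochondrial membrane. Fresh tumours of several mice were pooled within each genotype, and 1 droplet single-cell library was made from each pool. How many mice there were, and their age, strain and sex, the labels do not say. With 1 library per genotype there were no replicates, so no test between genotypes was possible. The 95% intervals given with each level and ratio cover counting error only, and not the variation between mice or preparations.

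Cells make cholesterol from acetyl-CoA over mevalonate, squalene and lanosterol, and make long-chain fatty acids from the same acetyl-CoA by carboxylation, chain building, elongation and desaturation. The transcription factors encoded by Srebf1 and Srebf2 (SREBPs) are made as membrane-bound precursors. The escort protein SCAP carries them to the Golgi for cleavage when sterols are scarce, and INSIG proteins hold SCAP in the endoplasmic reticulum when sterols are plentiful. The form encoded by Srebf2 is known mainly for driving the sterol genes and the main form of Srebf1 for driving the fatty acid genes, and most genes described here are textbook targets of one or both. In the intestine, epithelial cells both absorb and make sterols, and dividing cells need them for new membranes.

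The kept cells numbered 4388 in the cKO library and 7245 in the WT library, with medians of 6927.5 and 3723 unique molecular identifiers (UMIs, each standing for 1 captured transcript). The 2 libraries shared 22 cell barcodes, of which 14 were among kept cells. Cells were gated by marker genes, which gave 1694 epithelial-like cells with 66886967 UMIs in the cKO library and 3051 with 90628884 UMIs in the WT library. Their medians were 33889.5 and 20158 UMIs. All 10 epithelial markers were detected in both, at a summed 11561 counts per 1000000 UMIs (CPM) in cKO cells and 12277 CPM in WT cells. The 7 T cell markers summed to 8.87 and 9.52 CPM there. Mtch2 itself stood at 23.4 CPM (22.3 to 24.6) in cKO epithelial-like cells and 93.9 (91.9 to 95.9) in WT epithelial-like cells, a log2 ratio of -2.0 (-2.08 to -1.92). In macrophage and monocyte-like cells it stood at 52.3 in the cKO library and 52.0 in the WT library, and in neutrophil-like cells at 14.2 and 43.0. The gate used at least 40 epithelial marker UMIs per 10000, and kept cells under 2000 UMIs, 20.7% in the cKO library and 40.6% in the WT library, were left ungated.

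Promoters are shown for the 5 genes that the results return to most often and for which RefSeq sequences were given, as 250 bases before and 50 bases after the start, 5′ to 3′, on build GRCm38.p6. Capitals mark CCAAT, the letters bound by NF-Y, or its reverse complement ATTGG, and TCACNCCAC, a form of the sterol regulatory element bound by SREBPs. The Hmgcs1 window is chr13:119690101-119690400 on the plus strand, the Msmo1 window chr8:64733529-64733828 on the minus strand, the Insig1 window chr5:28071162-28071461 on the plus strand, the Fasn window chr11:120824498-120824797 on the minus strand and the Elovl6 window chr3:129532136-129532435 on the plus strand.
Hmgcs1: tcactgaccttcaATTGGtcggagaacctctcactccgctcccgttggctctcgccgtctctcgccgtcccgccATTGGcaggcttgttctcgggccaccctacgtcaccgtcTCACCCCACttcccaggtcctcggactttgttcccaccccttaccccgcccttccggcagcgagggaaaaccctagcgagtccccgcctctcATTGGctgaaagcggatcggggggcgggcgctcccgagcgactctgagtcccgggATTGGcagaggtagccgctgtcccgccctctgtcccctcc
Msmo1: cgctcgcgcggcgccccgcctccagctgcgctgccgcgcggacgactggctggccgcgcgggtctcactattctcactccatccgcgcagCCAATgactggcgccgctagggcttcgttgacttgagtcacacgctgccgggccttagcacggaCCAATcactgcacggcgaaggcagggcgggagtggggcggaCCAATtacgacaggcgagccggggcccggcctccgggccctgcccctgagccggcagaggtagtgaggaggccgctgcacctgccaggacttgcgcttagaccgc
Insig1: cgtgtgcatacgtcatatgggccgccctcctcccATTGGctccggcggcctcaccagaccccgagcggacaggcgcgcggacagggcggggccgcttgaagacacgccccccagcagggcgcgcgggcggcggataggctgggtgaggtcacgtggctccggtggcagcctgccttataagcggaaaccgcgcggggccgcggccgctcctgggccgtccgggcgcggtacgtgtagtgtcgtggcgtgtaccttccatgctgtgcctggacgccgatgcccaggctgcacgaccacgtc
Fasn: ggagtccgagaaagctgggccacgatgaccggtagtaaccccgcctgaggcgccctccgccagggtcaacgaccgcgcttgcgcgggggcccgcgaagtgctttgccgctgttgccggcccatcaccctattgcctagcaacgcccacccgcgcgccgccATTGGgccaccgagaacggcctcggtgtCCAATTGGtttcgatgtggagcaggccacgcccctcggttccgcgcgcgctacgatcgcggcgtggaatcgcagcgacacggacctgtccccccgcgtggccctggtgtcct
Elovl6: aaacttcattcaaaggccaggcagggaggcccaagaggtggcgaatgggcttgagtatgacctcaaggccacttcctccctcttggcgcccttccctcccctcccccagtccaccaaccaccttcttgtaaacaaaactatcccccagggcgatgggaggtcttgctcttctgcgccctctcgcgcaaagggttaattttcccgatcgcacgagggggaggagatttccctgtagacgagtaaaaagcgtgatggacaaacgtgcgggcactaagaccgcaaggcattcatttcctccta
Promoters were given for 24 of the 30 genes, 30 windows in all. TCACNCCAC on either strand occurred in 1 of the 30, that of Hmgcs1, where it begins 137 bases before the start and overlaps no other of these motifs. This is 3.33% against 1.24% of all 32851 promoters in the table. CCAAT occurred in 21 windows (70%, against 37.4% of all promoters), which belong to 20 genes: 15 of 16 sterol enzymes, 2 of 4 fatty acid genes and 3 of 4 regulators. GGGCGG, the letters bound by Sp1, occurred in 23 windows (76.7%, against 35.7%), and the E-box CACGTG in 6 (20%, against 7.15%). Hmgcs1 holds 4 CCAAT matches and Msmo1 holds 3, while Elovl6 holds none of these motifs in this window. Fasn holds 3 CCAAT matches, of which a forward and a reverse one overlap. These are matches of letters, not measured binding.

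In epithelial-like cells of both sexes pooled, the synthesis genes stood lower in the cKO library than in the WT library, and the 2 arms by the same amount. In summed UMIs this did not hold in cells assigned female. There the sterol arm was higher in the cKO library (log2 ratio 0.11) and the fatty acid arm level. With each cell thinned to the same number of UMIs, their mean sterol count was 3.91 in both libraries. Their fatty acid mean was then 2.08 in cKO cells and 2.40 in WT cells. The values by gene that come first are therefore sums over all epithelial-like cells. The sterol arm summed to 1201 CPM (1192 to 1209) in cKO cells and 1399 (1392 to 1407) in WT cells, a log2 ratio of -0.22 (-0.23 to -0.21). The fatty acid arm summed to 690 CPM (684 to 697) in cKO cells and 804 (799 to 810) in WT cells, also a log2 ratio of -0.22 (-0.24 to -0.20). The difference between the 2 log2 ratios was -0.00033 (-0.021 to 0.021), and there were 1.74 sterol UMIs for each fatty acid UMI in both libraries. Of the 30 genes, 26 were lower in the cKO library and 4 higher, where 56.6% of the 9379 genes measured in these cells were lower. By at least 1.2-fold, 6 of the 30 were lower and 0 higher, where 7.71% of all measured genes were lower and 4.65% higher by that much. The interval lay wholly below 0 for 24 of the 30 and wholly above 0 for 1, where it did so for 36.4% and 25.8% of all measured genes. The median log2 ratio was -0.20 over the 30 genes and -0.023 over all measured genes. Hmgcs1 carried 14.0% of the sterol arm's UMIs in cKO cells and 16.6% in WT cells, and without it the arm's log2 ratio was -0.18. Scd2 carried 53.3% of the fatty acid arm's UMIs in cKO cells and 54.8% in WT cells, and without it that arm's log2 ratio was -0.17.

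**Figure D1:**
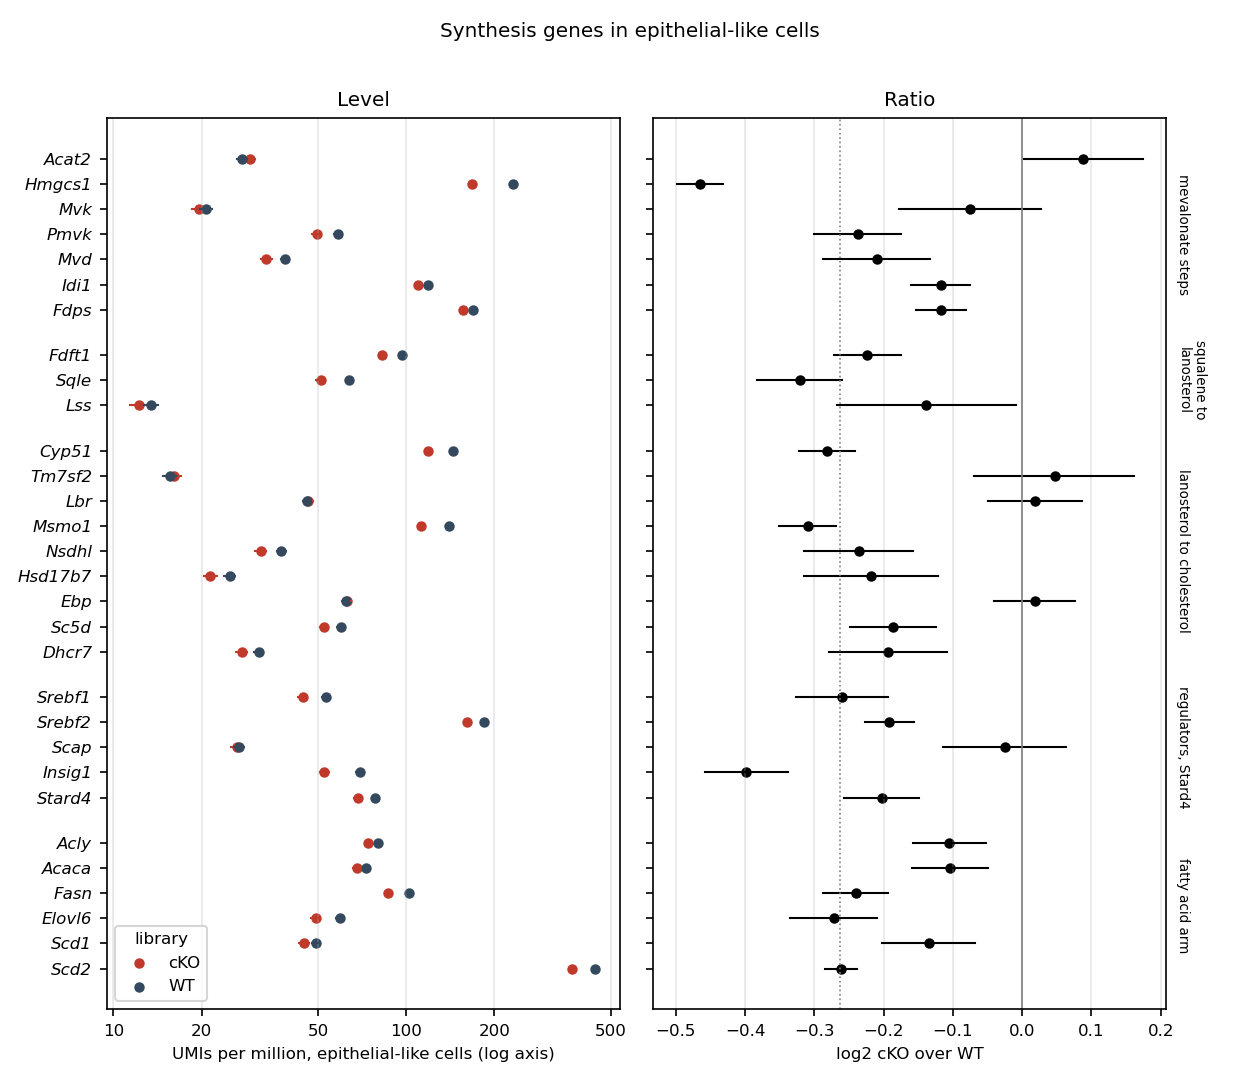
Level of each gene in CPM of epithelial-like cells on a log axis (left; red cKO, blue-grey WT) and its log2 ratio of cKO over WT (right), with 95% counting intervals as bars, 1 library each. 26 of the 30 points lie below 0, and 6 of them lie at or beyond the dotted line, which marks a 1.2-fold lower level.

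Among the mevalonate steps, Hmgcs1, which encodes the cytosolic HMG-CoA synthase and whose promoter is shown with the sterol element, had 168 CPM (165 to 171) in cKO epithelial-like cells and 232 in WT cells. Its log2 ratio of -0.47 (-0.50 to -0.43) was the lowest of the 30 genes, a 1.38-fold lower level. Fdps, the farnesyl pyrophosphate synthase, had 156 CPM in cKO cells and 169 in WT cells, with a log2 ratio of -0.12 (-0.15 to -0.08). Pmvk, the kinase that adds the second phosphate to mevalonate, had 49.5 in cKO cells and 58.3 in WT cells, with a log2 ratio of -0.24 (-0.30 to -0.17). The other members were Mvd (-0.21), Idi1 (-0.12), Mvk (-0.07) and Acat2 (0.09), and the interval of Mvk (-0.18 to 0.03) included 0 while that of Acat2 (0.0020 to 0.17) ended just above it. The mevalonate steps thus ran unevenly, with Hmgcs1 apart from the other 6, whose log2 ratios lay between -0.24 and 0.09. Acat2 has a close copy in the mouse genome, so its count is uncertain.

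Between farnesyl pyrophosphate and lanosterol all 3 genes were lower. Sqle, the squalene epoxidase and a rate-limiting step of the later pathway, had 51.0 CPM in cKO epithelial-like cells and 63.7 in WT cells, with a log2 ratio of -0.32 (-0.38 to -0.26). Fdft1, the squalene synthase, had 82.8 CPM in cKO cells and 96.6 in WT cells, with a log2 ratio of -0.22 (-0.27 to -0.17). Lss, which closes the ring to lanosterol, was at 12.2 in cKO cells and 13.5 in WT cells (-0.14, -0.27 to -0.01).

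From lanosterol to cholesterol, the 2 largest ratios were those of demethylating enzymes. Msmo1, the C4-methylsterol oxidase, had 113 CPM in cKO epithelial-like cells and 140 in WT cells, with a log2 ratio of -0.31 (-0.35 to -0.27). Cyp51, the C14-demethylase, had 118 CPM in cKO cells and 144 in WT cells, with a log2 ratio of -0.28 (-0.32 to -0.24). Nsdhl (-0.24), Hsd17b7 (-0.22), Dhcr7 (-0.19) and Sc5d (-0.19) were lower by less than 1.2-fold. Ebp, the sterol isomerase, and the sterol reductase genes Lbr and Tm7sf2 differed little, with log2 ratios of 0.02 (-0.04 to 0.08), 0.02 (-0.05 to 0.09) and 0.05 (-0.07 to 0.16). Lbr and Tm7sf2 encode enzymes for the same C14-reduction, and the Lbr protein is also a receptor of the nuclear lamina. Of the 9 genes of this stretch, 6 were lower and 3 slightly higher.

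Among the regulators, Insig1, itself a textbook SREBP target, had 52.5 CPM in cKO epithelial-like cells and 69.2 in WT cells, with a log2 ratio of -0.40 (-0.46 to -0.34), second only to Hmgcs1. Srebf2 had 161 CPM in cKO cells and 184 in WT cells, with a log2 ratio of -0.19 (-0.23 to -0.16). Srebf1 had 44.3 in cKO cells and 53.1 in WT cells, with a log2 ratio of -0.26 (-0.33 to -0.19). Scap, whose product escorts both factors, was at 26.5 in cKO cells and 26.9 in WT cells, and its interval included 0 (-0.11 to 0.06). Stard4, which encodes a protein that moves sterols between membranes, had 68.2 in cKO cells and 78.4 in WT cells (-0.20, -0.26 to -0.15). Scap was thus the only one of these 5 genes whose interval included 0. Of the 30 genes, 8 overlap another counted gene on the opposite strand (Hmgcs1, Fdft1, Lss, Cyp51, Lbr, Srebf1, Acaca and Elovl6), and Tm7sf2 overlaps Vps51 on the same strand. Whether counting used the strand is not stated, so reads in these overlaps cannot be told apart.

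In the fatty acid arm all 6 genes were lower, within a narrower range than the sterol enzymes. Elovl6, the elongase that makes stearate from palmitate, had 49.0 CPM in cKO epithelial-like cells and 59.2 in WT cells, with a log2 ratio of -0.27 (-0.34 to -0.21), a 1.21-fold lower level. Scd2, a stearoyl-CoA desaturase, had 368 CPM in cKO cells and 441 in WT cells, with a log2 ratio of -0.26 (-0.28 to -0.24), just short of 1.2-fold. Fasn, the fatty acid synthase, had 86.7 CPM in cKO cells and 102 in WT cells, with a log2 ratio of -0.24 (-0.29 to -0.19). Acly, which makes cytosolic acetyl-CoA from citrate for both arms, and Acaca, which carboxylates it, were at -0.11 and -0.10, and Scd1 was at -0.14. The 6 ratios ran from -0.27 to -0.10, while those of the 19 sterol enzymes ran from -0.47 to 0.09. Scd1 and Scd2 are close paralogs, so their counts may share reads.

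Related genes outside the 30 were listed by role, and 2 of these lists are given here. In the group of LXR receptors and efflux genes, 4 of 7 reached 10 CPM and so counted as measured. Of these 4, 2 were lower by at least 1.2-fold and 0 higher, where 7.71% of all measured genes were lower and 4.65% higher. Their median log2 ratio was -0.23. Apoe, an apolipoprotein, had 25.9 CPM in cKO epithelial-like cells and 34.3 CPM in WT cells, with a log2 ratio of -0.41 (-0.49 to -0.32). In macrophage and monocyte-like cells Apoe stood at 12263 CPM in the cKO library and 19004 CPM in the WT library, and the part of their RNA in the epithelial value was not tested. Abcg1, a sterol exporter, had 15.3 CPM in cKO cells and 18.6 CPM in WT cells, with a log2 ratio of -0.28 (-0.40 to -0.17). All 5 genes of SREBP processing were measured, 0 were lower or higher by at least 1.2-fold, and the median was -0.10. With the same 7.71% and 4.65% over all genes, a count of 0 among 5 does not set this list apart from other genes. Among them Insig2, which like Insig1 encodes a protein that retains SCAP, had 31.0 CPM in cKO cells and 33.4 CPM in WT cells, with a log2 ratio of -0.11 (-0.19 to -0.03).

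Each pool held cells of both sexes in unequal parts, and the difference between the libraries was not the same in them. Cells were assigned female where they had Xist UMIs and none of 4 Y-linked genes, and male in the reverse case. Of the epithelial-like cells, 272 (16.1%) were assigned female in the cKO library and 967 (31.7%) in the WT library, and 1032 (60.9%) and 1105 (36.2%) were assigned male. In cells assigned male, the sterol arm summed to 1090 CPM in cKO cells and 1371 in WT cells, a log2 ratio of -0.33 (-0.35 to -0.31). In cells assigned female it summed to 1556 in cKO cells and 1438 in WT cells, a log2 ratio of 0.11 (0.085 to 0.14). The fatty acid arm gave -0.32 (-0.35 to -0.30) in cells assigned male, and 789 CPM in both libraries in cells assigned female (0.0012, -0.039 to 0.041). In the 390 cKO and 979 WT cells assigned to neither sex, the sterol arm was at -0.076 (-0.10 to -0.051) and the fatty acid arm at -0.12 (-0.15 to -0.086). With each cell thinned to the same number of UMIs, cells assigned female had a mean of 3.91 sterol UMIs in both libraries. Their fatty acid mean was 2.08 in the cKO library and 2.40 in the WT library. In cells assigned male the sterol means were 3.01 and 3.75 and the fatty acid means 1.84 and 2.32. The higher sterol level of cKO cells assigned female was thus not seen at equal depth.

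Counts of genes from the summed UMIs also differed by assigned sex. In cells assigned male, 29 of the 30 were lower at all, as were 62.1% of all measured genes, and in cells assigned female 12 were, as were 45.3%. In cells assigned male, 14 of the 30 were lower in the cKO library by at least 1.2-fold and 0 higher, where 11.8% of all measured genes were lower and 6.13% higher. In cells assigned female, 1 of the 30 was lower (Scd1) and 7 were higher, where 13.6% of all measured genes were lower and 16.6% higher. For 11 of the 30 genes the interval lay above 0 in cells assigned female and below 0 in cells assigned male, as it did for 8.76% of the 9226 genes measured in both, and the reverse held for 5.16% of them. In cells assigned to neither sex 2 of the 30 were lower and 0 higher by at least 1.2-fold, where 13.9% of all measured genes were lower and 9.38% higher. Of the 11 genes, 8 are sterol enzymes, 2 are regulators (Scap and Insig1) and 1 is Acly. How many mice of each sex entered a pool is not given, so the sex of the cells and the single mice behind them cannot be told apart.

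Among these 11 genes Hmgcs1 had the lowest ratio in cells assigned male. In cells assigned male it had 143 CPM in the cKO library and 237 in the WT library. In cells assigned female it had 256.5 in the cKO library and 223 in the WT library. Sqle had 42.3 CPM in cKO cells and 63.9 in WT cells among those assigned male, and 77.8 and 65.9 among those assigned female. The 2 WT values of each gene lay close together, and the cKO values lay on either side of them. Msmo1 gave the same picture, with 98.3 in cKO cells and 134 in WT cells among those assigned male, and 166 and 145 among those assigned female. Fdps did not, with log2 ratios of -0.07 (-0.12 to -0.01) in cells assigned male and -0.11 (-0.20 to -0.03) in cells assigned female, and neither did Cyp51 (-0.36 and -0.10) nor Srebf2 (-0.23 and -0.09), which were lower in both.

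**Figure D2:**
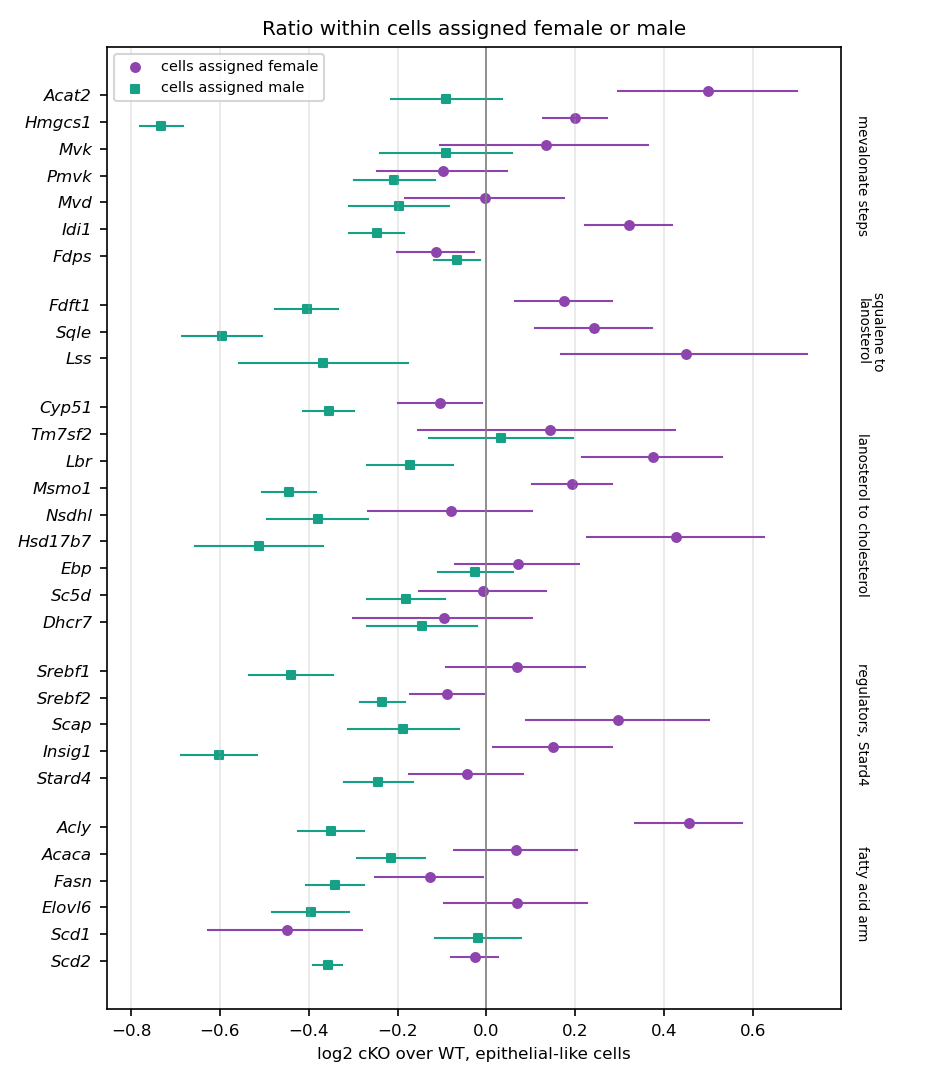
Log2 ratio of cKO over WT for each gene within epithelial-like cells assigned female (purple circles) or male (green squares), with 95% counting intervals, 1 library per genotype. In cells assigned male 29 of 30 points lie below 0, while in cells assigned female 18 lie above it.

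Seen within a library, cells assigned female and male differed more in the cKO pool. There the sterol arm was higher in cells assigned female than in those assigned male by a log2 ratio of 0.51 (0.48 to 0.54) and the fatty acid arm by 0.27 (0.23 to 0.30). In the WT pool the same ratios were 0.068 (0.048 to 0.088) and -0.057 (-0.083 to -0.030). In summed UMIs the split was seen in stem-like, mitotic and other epithelial cells but not in absorptive cells. With thinning, the mean sterol count of stem-like cells assigned female was 3.15 in the cKO library and 3.33 in the WT library. In other epithelial cells assigned female it was 4.10 and 3.82. In stem-like cells assigned female the sterol arm had 1335 CPM in the cKO library and 1167 in the WT library (99 and 345 cells), and in those assigned male 945 and 1264 (377 and 425 cells). Absorptive cells had fewer CPM of the sterol arm in the cKO library in both sexes, with 1335 against 2006 in the WT library in those assigned female (44 and 110 cells) and 1195 against 1627 in those assigned male (119 and 114 cells). Mitotic cells assigned female had 2225 in the cKO library and 1627 in the WT library, from 20 cKO and 70 WT cells. Outside the epithelium, macrophage and monocyte-like cells assigned male had 414 CPM of the sterol arm in the cKO library and 495 in the WT library (129 and 66 cells). Those assigned female had 588 and 526, from 33 cKO and 54 WT cells.

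Epithelial-like cells were divided by marker genes into stem-like (587 cKO and 1114 WT cells), absorptive (195 and 316), mitotic (168 and 274), goblet and Paneth (60 and 179) and other cells (684 and 1168). The sterol arm stood highest in absorptive cells of the WT library and in mitotic cells of the cKO library, and lowest in stem-like cells of both. Absorptive cells had 1329 CPM of the sterol arm (1300 to 1359) in the cKO library and 1847 (1818 to 1877) in the WT library. Mitotic cells had 1472 (1449 to 1496) and 1538 (1515 to 1561), and stem-like cells 1029 (1016 to 1043) and 1207 (1196 to 1219). The order of the fatty acid arm was different: mitotic cells were highest, at 792 in the cKO library and 869 in the WT library, and absorptive cells lowest, at 415 and 605. The 2 arms therefore parted most in absorptive cells, with 3.21 sterol UMIs per fatty acid UMI in the cKO library (3.07 to 3.35) and 3.05 in the WT library (2.96 to 3.15). The same ratio was 1.47 and 1.53 in stem-like cells, 1.86 and 1.77 in mitotic cells and 2.04 and 2.14 in goblet and Paneth cells.

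**Figure D3:**
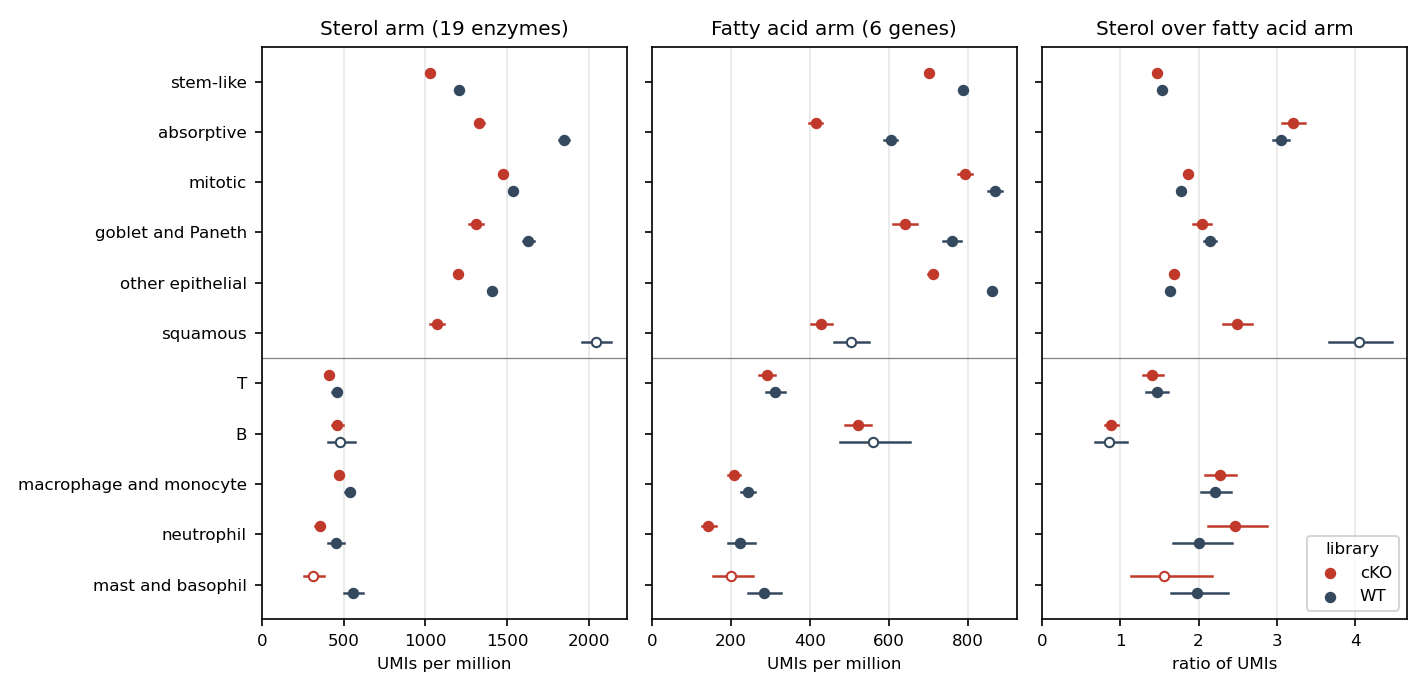
Summed CPM of the sterol arm (left) and the fatty acid arm (middle) and the ratio of their UMIs (right). Epithelial subtypes and squamous cells are above the line and immune classes below it. Red is cKO and blue-grey WT, with 95% counting intervals and open symbols for groups under 50 cells. Absorptive cells have the highest ratio among epithelial subtypes at 3.21 and 3.05, and B-like cells a ratio under 1. Squamous cells stand at 2.49 in the cKO library and 4.05 in the WT library. The second is from 13 cells with more epithelial than squamous marker UMIs.

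The difference between the libraries varied by subtype. Over both sexes it was widest in absorptive cells, with log2 ratios of -0.47 (-0.51 to -0.44) for the sterol arm and -0.54 (-0.61 to -0.48) for the fatty acid arm. Of 29 measured genes there, 21 were lower and 0 higher by at least 1.2-fold, where 14.9% of all measured genes were lower and 11% higher. The difference over both sexes was smallest in mitotic cells, with -0.063 (-0.094 to -0.031) and -0.13 (-0.18 to -0.091). There 2 of 30 genes were lower and 0 higher by that much, where 14.4% of all measured genes were lower and 7.7% higher. Stem-like cells lay between, with -0.23 (-0.25 to -0.21) and -0.17 (-0.20 to -0.14), and with 8 of 30 genes lower and 0 higher, where 8.11% of all genes were lower and 5.79% higher. Goblet and Paneth cells gave -0.31 (-0.37 to -0.26) and -0.25 (-0.33 to -0.17), from 60 cKO cells, with 17 of 30 genes lower and 2 higher, where 20.3% of all genes were lower and 19.2% higher. The other cells gave -0.23 (-0.25 to -0.20) and -0.28 (-0.30 to -0.25), with 9 of 30 genes lower and 0 higher, where 10.1% of all genes were lower and 5.41% higher. Among mitotic cells assigned male, the sterol arm gave -0.18 (-0.22 to -0.13) and the fatty acid arm -0.31 (-0.38 to -0.25), with 12 of 30 genes lower and 0 higher, where 21.5% of all genes were lower and 10.8% higher. The fatty acid ratio was then close to the -0.30 (-0.34 to -0.26) of other epithelial cells assigned male. For this arm the small mitotic difference was thus not seen in cells assigned male. The sterol ratio of mitotic cells assigned male stayed smaller in size than the -0.28 (-0.31 to -0.25) of other epithelial cells assigned male. At equal depth the mean sterol count of mitotic cells over both sexes was higher in the cKO library, as given below. In absorptive cells assigned male the sterol arm gave -0.44 (-0.50 to -0.39), and in stem-like cells assigned male -0.42 (-0.45 to -0.39). Goblet and Paneth cells assigned male had 1075 CPM in the cKO library and 1560 in the WT library, from 30 and 63 cells. Among cells assigned male, absorptive cells thus did not stand apart.

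Single genes shaped the absorptive pattern. Hmgcs1 had 206 CPM in the cKO library and 307 in the WT library in absorptive cells, and Msmo1 had 209 and 300, well above the 84.4 and 114 of stem-like cells. Sc5d, the sterol desaturase, was likewise high there, at 102 and 108, against 45.0 and 54.5 in stem-like cells. The early fatty acid genes were low in absorptive cells. Fasn stood at 25.7 in the cKO library and 33.9 in the WT library, against 106 and 126 in stem-like cells, and Acaca at 23.6 and 33.9, against 78.3 and 79.0. Scd1 stood at 8.41 and 13.3, against 68.1 and 67.8. Elovl6 went the other way, with 79.1 in the cKO library and 101 in the WT library in absorptive cells, against 43.1 and 46.6 in stem-like cells. The fatty acid arm thus did not behave as a unit across subtypes. Elovl6 was higher in absorptive than in stem-like cells, as was the sum of the sterol arm, and Fasn was lower. Lbr had its highest epithelial level in mitotic cells, at 103 and 105, against 24.3 and 30.5 in stem-like cells.

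The immune classes given here held the sterol arm at lower levels than the epithelium in both libraries. T-like cells (353 cKO, 257 WT) had 411 CPM of the sterol arm (388 to 434) in the cKO library and 458 (430 to 487) in the WT library, and macrophage and monocyte-like cells (221 and 170) had 473 (451 to 495) and 537 (511 to 563). Neutrophil-like cells (327 and 171) had 353 (325 to 383) and 451 (405 to 501). B-like cells had 462 (432 to 494) in the cKO library (295 cells) and 480 (403 to 567) in the WT library (44 cells only). The intervals of T-like, B-like and neutrophil-like cells overlapped in the WT library, and every one of these levels lay below the lowest epithelial subtype of its library. The 10 epithelial markers summed to 938 CPM in cKO T-like cells and 1484 in WT ones, to 586 and 850 in macrophage-like cells and to 1314 and 2324 in neutrophil-like cells. They were thus higher in the WT library in each of these classes, and their part in the levels was not tested.

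**Figure D4:**
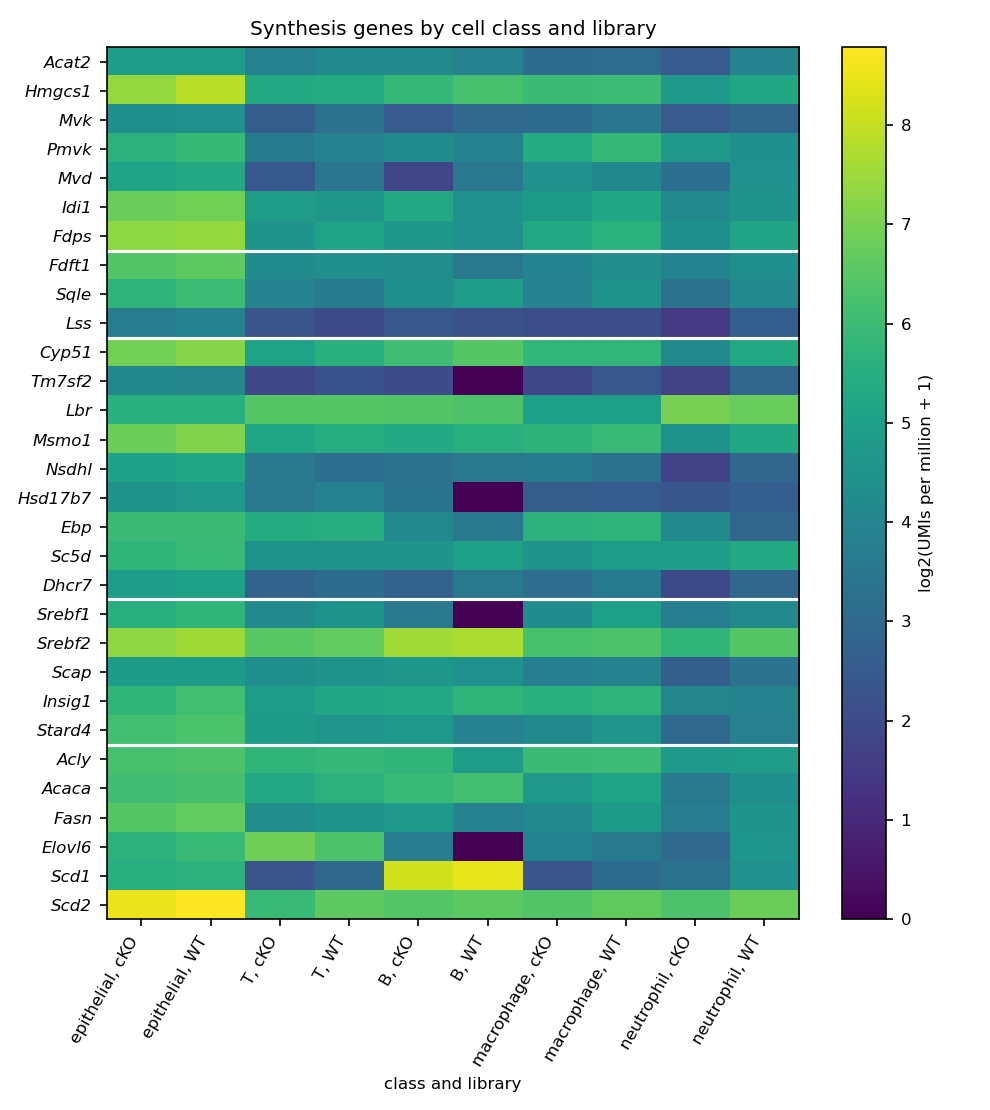
Level of each gene, as log2 of CPM plus 1, in epithelial-like cells and 4 immune classes of the cKO and WT libraries, with white lines between the roles. Most genes are brightest in the 2 epithelial columns, while Scd1 is bright in B-like cells, Elovl6 in T-like cells and Lbr in neutrophil-like cells.

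Among classes of at least 50 cells, 19 of the 30 genes were highest in epithelial-like cells in the cKO library and 27 in the WT library. The classes compared were not the same, with 6 in the cKO library and 5 in the WT library. The 44 WT B-like cells were left out, although their Scd1 and Srebf2, at 354 and 207 CPM, exceeded the 49.2 and 184 of WT epithelial-like cells. The 2 counts are therefore not a difference between the libraries. In the cKO library, where 56 squamous cells could be compared, 7 genes were highest in these: Hmgcs1, Mvk, Idi1, Sqle, Hsd17b7, Sc5d and Scap. Hmgcs1 stood there at 169 CPM, close to the 168 of epithelial-like cells. The WT library held only 13 squamous cells. The sterol arm of squamous cells summed to 1070 CPM (1029 to 1112) in the cKO library and 2045 (1957 to 2135) in the WT library. Both lay above the stem-like cells of their library.

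The exceptions to the epithelial pattern were clear for 3 genes. Scd1 had 285 CPM in B-like cells of the cKO library and 354 in those of the WT library, against 44.8 and 49.2 in epithelial-like cells. B-like cells had 3.30 Scd1 UMIs per Scd2 UMI in the cKO library and 3.74 in the WT library, and epithelial-like cells 0.122 and 0.111, so the more counted of the 2 desaturases differed between the classes. A Scd1 UMI was seen in 74.9% of cKO and 75% of WT B-like cells at median depths of 6106 and 6430 UMIs, and in 3.40% and 5.84% of T-like cells at 7682 and 7606 UMIs. Elovl6 had 117 CPM (105 to 130) in cKO T-like cells and 80.4 (69.0 to 93.1) in WT ones, against 49.0 and 59.2 in epithelial-like cells. Its log2 ratio in T-like cells, 0.54 (0.28 to 0.81), thus pointed the other way from the -0.27 of epithelial-like cells. A UMI of Elovl6 was seen in 32.9% of cKO and 29.2% of WT T-like cells, against 5.08% of cKO B-like cells. Lbr had 124 CPM in cKO neutrophil-like cells and 107 in WT ones, against 46.3 and 45.7 in epithelial-like cells. Srebf2 was also high in B-like cells, at 188 and 207.

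Outside the epithelium the 2 arms were also lower in the cKO library. In T-like cells the log2 ratio was -0.16 (-0.28 to -0.036) for the sterol arm and -0.10 (-0.25 to 0.042) for the fatty acid arm, and 10 of 24 measured genes were lower and 2 higher by at least 1.2-fold, where 20.8% of all measured genes were lower and 17% higher. In macrophage and monocyte-like cells the ratios were -0.18 (-0.28 to -0.086) and -0.22 (-0.37 to -0.073), and 11 of 24 genes were lower and 3 higher by that much, where 25% of all genes were lower and 16.3% higher. In neutrophil-like cells they were -0.35 (-0.55 to -0.16) and -0.65 (-0.93 to -0.36), and 18 of 23 genes were lower and 2 higher by that much, where 51% of all genes were lower and 13.6% higher. The median log2 ratio in neutrophil-like cells was -0.74 over the 23 measured genes and -0.28 over all measured genes. Lbr alone made up 124 of the 353 CPM of their sterol arm in the cKO library and 107 of the 451 CPM in the WT library. It thus weighed heavily on the ratio of that arm.

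Cell by cell, the arms varied widely within each library. After each cell was thinned to 3000 UMIs, which left out 155 cKO and 283 WT epithelial-like cells that were shallower, the cells held 0 to 19 sterol UMIs in the cKO library and 0 to 20 in the WT library, with a median of 3 in both and means of 3.23 and 3.86. The lower and upper quartiles were 1 and 4 in cKO cells and 2 and 5 in WT cells. For the fatty acid arm the median was 2 in both and the means were 1.91 and 2.36. Cells with at least 1 sterol UMI made up 88.6% of cKO cells and 93.0% of WT cells. The variance of the sterol count was 2.10 times its mean in cKO cells and 2.16 times in WT cells, where counting alone would give a ratio near 1. By this ratio absorptive cells had the widest spread, with variances of 2.74 and 2.64 times the mean. Macrophage and monocyte-like cells had 1.71 and 1.63, and T-like cells were near the counting value at 1.11 and 1.34. Their mean sterol counts also differed, at 3.24 and 4.95 in absorptive, 1.28 and 1.57 in macrophage and monocyte-like, and 1.24 and 1.33 in T-like cells. The spread was thus not compared at an equal mean. In mitotic cells the mean sterol count after thinning was higher in the cKO library, at 4.45 against 4.22 in the WT library. In mitotic cells assigned male it was 3.99 and 4.15. It was lower in the cKO library in stem-like, absorptive, goblet and Paneth, and other cells. The fatty acid mean of mitotic cells was 2.42 in the cKO library and 2.59 in the WT library. Before thinning, mitotic cells had median depths of 56115.5 and 25709.5 UMIs.

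Across the thinned cells the Pearson correlation of the 2 arms was 0.24 over 1539 cKO epithelial-like cells and 0.19 over 2768 WT ones. Among the subtypes it was highest in mitotic cells, at 0.38 and 0.30. By ranks (Spearman) mitotic cells had 0.31 in the cKO library and 0.13 in the WT library, against 0.22 and 0.18 over all epithelial-like cells. The high place of mitotic cells was thus not seen by ranks in the WT library. These are descriptions of cells that share a library, and with medians of 3 and 2 UMIs counting noise keeps such correlations low whatever the arms do. The CPM of both arms rose with the depth of the cell. In the shallowest of 4 depth bins the sterol arm had 814 CPM in cKO cells and 1100 in WT cells, and in the deepest 1301 and 1481. The log2 ratio of cKO over WT was -0.43 (-0.54 to -0.33), -0.41 (-0.46 to -0.37), -0.36 (-0.39 to -0.34) and -0.19 (-0.20 to -0.17) from the shallowest to the deepest bin. It was thus negative in each bin, and larger in size than the pooled -0.22 in all but the deepest. With thinning to equal depth, the sterol arm gave -0.26 and the fatty acid arm -0.30, and 14 of the 30 genes were lower and 0 higher by at least 1.2-fold, where 12.8% of all genes measured after thinning were lower and 10.4% higher.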

How the data were processed

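Single-cell RNA was measured in 1 pooled tumour library of each genotype. The deposited values are whole-number counts of UMIs per gene and cell barcode, written by Cell Ranger 7.2.0, per the file headers. Seurat 3.0 and the build mm10 are named in the submitters' processing notes. Genes and lists were chosen with earlier results of these data known, and the gate thresholds were set after seeing the data.

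Barcodes with under 500 genes (1607 cKO, 905 WT), over 25% mitochondrial UMIs (487, 671), or among the highest doublet scores at 0.8% per 1000 barcodes (362, 714) were removed. Cells of at least 2000 UMIs were gated by marker genes per 10000 UMIs: epithelial-like from 40, other classes from 5 with at least 3 markers, squamous from 10. Names were rebuilt from markers and may differ from the study's. The counts of all cells of a class in a library were added up and expressed per 1000000 UMIs (CPM). Levels have exact Poisson and ratios exact conditional binomial 95% intervals. A gene was measured at 10 CPM or more, and 1.2-fold was the size named. Per role, the text names the 2 genes of highest level and the 2 of largest ratio, with 2 per outside list; some related genes and lists are not reported here. Genes named for an exception between cell classes were chosen after their values were seen. Per-cell values used cells thinned to 3000 UMIs. The interval and fold calculation was checked on simulated data. Alternatives covered scaling, gating, doublets, clusters (29 Leiden clusters), weighting, sex and depth. Promoters came from RefSeq (GRCm38.p6). Python 3.11.15, numpy 2.4.6, scipy 1.17.1, pandas 2.3.3, scanpy 1.11.5, leidenalg 0.10.2 and matplotlib 3.10.9 were used.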

Additional observations from a re-analysis of the deposited data

Results flagged for a closer look

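Of the 30 genes, 11 were higher in the cKO library in epithelial-like cells assigned female and lower in those assigned male, with each interval clear of 0; the difference between the sexes was not tested. As log2 ratios of cKO over WT, in cells assigned female and then male, the mevalonate genes gave Hmgcs1 0.20 and -0.73 and Idi1 0.32 and -0.25. The genes from squalene to lanosterol gave Fdft1 0.17 and -0.40, Sqle 0.24 and -0.59, and Lss 0.45 and -0.37. Those from lanosterol to cholesterol gave Lbr 0.37 and -0.17, Msmo1 0.19 and -0.44, and Hsd17b7 0.43 and -0.51. The regulators gave Scap 0.30 and -0.19, and Insig1 0.15 and -0.60, and the fatty acid arm gave Acly 0.46 and -0.35. The sum of the sterol arm gave 0.11 and -0.33. These ratios are from summed UMIs. With cells thinned to equal depth, the mean sterol count of cells assigned female was 3.91 in both libraries. The higher sterol sum in cKO cells assigned female was thus not seen at equal depth. The same pattern was seen for 8.76% of the 9226 genes measured in both sexes, and the reverse one for 5.16%. The cells assigned female numbered 272 in the cKO library and 967 in the WT library, and the number of mice behind them is not known.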

How the results depend on the processing

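The log2 ratio of the sterol arm in epithelial-like cells (-0.22) stayed within counting error with all barcodes, with doublets kept and with a stricter gate. It was -0.18 scaled without mitochondrial, ribosomal, haemoglobin and immunoglobulin genes, -0.20 with median-of-ratios scaling, -0.29 as a mean of per-cell values, -0.23 with clusters in place of gates, -0.27 with equal weights of subtypes, -0.26 thinned, -0.19 as the median gene and -0.18 without Hmgcs1. The fatty acid arm (-0.22) gave -0.18, -0.20, -0.29, -0.25 with equal weights, -0.30 thinned, -0.19 as the median gene and -0.17 without Scd2, and stayed within counting error with clusters and the other 3 settings. By sex, the sterol arm was 0.11 in cells assigned female, -0.33 in male and -0.076 in neither; the fatty acid arm was 0.0011, -0.32 and -0.12. In summed UMIs the sterol arm thus turned positive in cells assigned female, where the interval of the fatty acid arm included 0. After thinning, the mean sterol count of these cells was 3.91 in both libraries. Their fatty acid mean was 2.08 in the cKO library and 2.40 in the WT library. The cause was not tested. The difference between the arms was 0.11 in cells assigned female, 0.043 in neither and 0.044 thinned. The 6 genes lower by at least 1.2-fold became 10 with per-cell means, 13 with equal weights and 14 thinned, where 8.34%, 7.46% and 12.8% of all measured genes were lower by that much. They became 1 in cells assigned female, 14 in male and 2 in neither, and stayed between 4 and 8 in 7 other settings. Cells of neither sex, and the sums without Hmgcs1 or Scd2, were added after seeing the data. No paired analysis was possible because each genotype has 1 library without replicate numbers. Genotype, pool, library and sex make-up cannot be told apart. B-like cells of the WT library numbered 44, which widens their intervals.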

Other observations

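Elovl6 in T-like cells was split by marker genes after its values were seen. T-like cells with a Cd4 UMI had an Elovl6 level of 146 CPM (126 to 168) in the cKO library and 79.6 (62.8 to 99.7) in the WT library. Those with a Cd8a UMI had 118 (89.5 to 154) in the cKO library and 61.4 (37.5 to 94.8) in the WT library, from 41 and 26 cells. Those with a Foxp3 UMI, the marker of regulatory T cells, had 112 and 111, and those with a UMI of the proliferation marker Mki67 had 111 and 102. T-like cells with a Trdc UMI, a gene of the gamma-delta receptor, were low in both libraries, at 25.3 and 10.7, the second from 3 UMIs. Cells with none of these had 101 (75.3 to 134) in the cKO library and 139 (103 to 184) in the WT library. The higher Elovl6 level of cKO T-like cells was thus not seen in every group of cells. The groups overlap, and 1 cKO cell with a Cd4 UMI held 31 of the 350 Elovl6 UMIs of cKO T-like cells.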
